A study of Mus musculus and Homo sapiens with 20 samples.

Results

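The genes described here are 46 genes of autophagy and the lysosome, listed by symbol and measured by RNA-seq in 3 cell lines after inhibition of the chaperone HSP90. Members were found as the rows whose gene symbol equals a listed symbol, ignoring case. All 46 were present in each count table, out of 63568 genes in the human table and 43626 in either mouse table. After a filter on low counts, 44 members were tested among 13456 genes in K562, while MEF had 46 among 12340 and HPC-7 had 45 among 11703. K562 is a human chronic myeloid leukaemia line. MEF stands for embryonic fibroblasts of the mouse, and HPC-7 cells are mouse blood precursors grown as a line. The inhibitor was NVP-AUY922, which binds the ATP site of HSP90, and was given for 16 h at 300 nM to K562, 200 nM to MEF and 50 nM to HPC-7. Line and dose therefore changed together. Each line had 3 treated libraries (HSP90i) and 3 libraries labelled Control, whose columns are named for the solvent DMSO. No genotype or allele is given for any group. Nothing in the labels says that replicates came from separate cultures, so a p-value reflects just the spread among these libraries, which may be technical.

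In macroautophagy a membrane closes around cytoplasmic cargo to form an autophagosome, which then fuses with a lysosome. The ULK1 kinase complex and the BECN1-ATG14 lipid kinase complex start the membrane, conjugation factors attach proteins of the ATG8 family (LC3 and GABARAP) to it, and receptors such as p62 (SQSTM1) link cargo to ATG8 proteins. Lysosomal hydrolases work at the acid pH made by the vacuolar proton pump, and the transcription factors TFEB and TFE3 bind a CLEAR element found near many of these genes.

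The members fall into 22 genes of the autophagy machinery, 12 hydrolases, 4 genes of the proton pump, 4 lysosomal membrane proteins, the cofactor genes PSAP and NPC2, and TFEB and TFE3. Levels are CPM, that is counts scaled to library size, with factors from the trimmed mean of M-values (TMM). Changes are log2 fold changes (HSP90i over Control) given with a standard error (SE), and n = 3 per group throughout. A gene was called at an adjusted p below 0.05 in edgeR's quasi-likelihood test, adjusted by Benjamini-Hochberg over all genes tested in the line. CPM is not divided by gene length, so levels are compared between samples and never between genes. In bulk RNA, fewer cells of a type and less RNA per cell cannot be told apart.

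K562 libraries held 7936066 to 10950573 counts, MEF libraries 10542305 to 22872539 and HPC-7 libraries 10131491 to 16859394. K562 Control replicate 1 stood apart from the other K562 controls, with a chi-square per degree of freedom of 43.6 and 55.2 against them over genes, compared with 5.43 between the other two. K562 counts of members, their main roles and the wider list are therefore also given without it. MEF Control replicate 3 differed from the other MEF controls by 11.2 and 11.1, against 3.45 between those. It held more reads of some blood cell markers than they did, 77 of Kit (2 and 0 in replicates 1 and 2), 28 of Tal1 (1 and 0) and 13 of Ptprc (3 and 0). MEF HSP90i replicate 3 had 11, 2 and 5 such reads and the other treated MEF libraries 0. Of the other progenitor markers, Lmo2 (0, 0 and 9 reads in Control replicates 1 to 3) and Lyl1 (3, 1 and 6) also had most reads in replicate 3. In CPM, Cd34 and Gata2 were highest there too, and Spi1, Fli1 and Runx1 were not. The macrophage markers Lyz2 and Mrc1 went the other way, at 1.28 and 1.10 CPM in Control replicate 1 and 0.095 and 0.571 CPM in replicate 3. The part of these reads in the MEF results was not tested. Fibroblast markers were present in MEF (Col1a1 at 5697 CPM in the controls, Thy1 at only 5.80 CPM). Progenitor markers were present in HPC-7 (Kit at 987 CPM, Cd34 at 342 CPM) and erythroid markers in K562 (10 of 10 passed the filter on low counts). Some were not particular to 1 line. Cd34 was also at 181 CPM in MEF controls, and the fibroblast marker Pdgfrb at 192 CPM in HPC-7 controls.

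Promoter sequence was searched for the mouse members, because several lysosomal genes below moved together in the mouse lines. RefSeq promoters of GRCm38.p6, 250 bases before to 50 after a start site of the gene, matched 38 of 46 members. This start need not be the outer end of the gene. For Ctsa, Atp6v1a and Atg7, among others, it lay inside the gene's printed span. Becn1, Npc1, Atg16l1, Ctsb, Map1lc3a, Atp6v1h, Atg12 and Bnip3l had no match. The palindromic CLEAR core TCACGTGA, which reads the same on both strands, was present in 6 of these 38 promoters (15.8%) and in 1.12% of the promoters of 27025 genes. The matches were Ctsa, Ctsd, Gla, Mcoln1, Atp6v0d1 and Atp6v1a, that is 5 of 14 hydrolase and pump genes, 1 membrane gene and 0 of 17 autophagy machinery genes. The sequences below show the matches of 4 of these genes with up to 20 bases on either side, 5′ to 3′ on the gene's strand, with the core in capitals. Those of Mcoln1 and Atp6v0d1 and a second match in Ctsa, which lies after the start, are not printed.
Ctsa, chr2:164833740-164833772, plus strand: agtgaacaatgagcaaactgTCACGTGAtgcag
Ctsd, chr7:142387899-142387946, minus strand: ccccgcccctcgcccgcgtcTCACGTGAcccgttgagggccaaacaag
Atp6v1a, chr16:44139364-44139411, minus strand: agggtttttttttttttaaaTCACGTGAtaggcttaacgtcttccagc
Gla, upstream match, chrX:134601206-134601253, minus strand: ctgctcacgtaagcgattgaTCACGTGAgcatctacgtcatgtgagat
Gla, downstream match, chrX:134601173-134601220, minus strand: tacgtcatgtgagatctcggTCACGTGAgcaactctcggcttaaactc
The shorter E-box CACGTG, which lies inside the core and so overlaps it, was in 13 of 38 member promoters (34.2%) against 8.09% of genes. Its 4 autophagy matches were Bnip3, Atg14, Atg5 and Atg7. A pair of heat shock units, GAANNTTC, which also reads the same on both strands, was in 1 of 38 (2.63%, Optn, with its first base after the start) against 9.04% of genes, and a heat shock element of 3 units (that motif followed by NNGAA or preceded by TTCNN) in 0 of 38 against 0.662%. Such matches describe the letters of these windows and do not show binding.

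In both mouse lines most members rose, while in K562 few passed the test. In MEF 35 of 46 members were higher and 8 lower, where 35.1% of all tested genes were higher and 38.2% lower (73.4% in either direction). In HPC-7 34 of 45 were higher and 2 lower, against 36.5% and 36.6% of all genes (73.1% in either direction). In K562 4 of 44 were higher and 0 lower, against 5.11% and 5.97% (11.1% in either direction). At an unadjusted p below 0.05, edgeR gave 15 K562 members higher and 1 lower, beside 12.2% and 14.8% of all genes, and DESeq2 called 7 higher and 0 lower after adjustment, beside 7.01% and 7.19%. Without K562 Control replicate 1, 22 members were higher by edgeR after adjustment, beside 14% of all genes. At the unadjusted threshold 29 members were higher, beside 20.2% of all genes. Without MEF Control replicate 3, 35 members were higher and 5 lower, as Atg16l1, Tfe3 and Ctsb were no longer called. Of all genes in that setting 37.1% were higher and 37.1% lower. The median log2 fold change of the members was 0.23 in K562 (all genes tested −0.02), 0.51 in MEF (−0.01) and 0.70 in HPC-7 (−0.0024). Treated and control values of a member did not overlap for 43 of 46 members in MEF (76.2% of all genes), 36 of 45 in HPC-7 (77.4%) and 22 of 44 in K562 (35.2%, or 34 of 44 beside 54% without Control replicate 1), so that in the mouse lines non-overlap itself was common. Changes of at least 2-fold were a minority of the members, with 5 higher in MEF, 12 higher and 1 lower in HPC-7 and 0 in K562. The share of all genes at that size was not counted, so these numbers have no measure beside them.

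**Figure D1:**
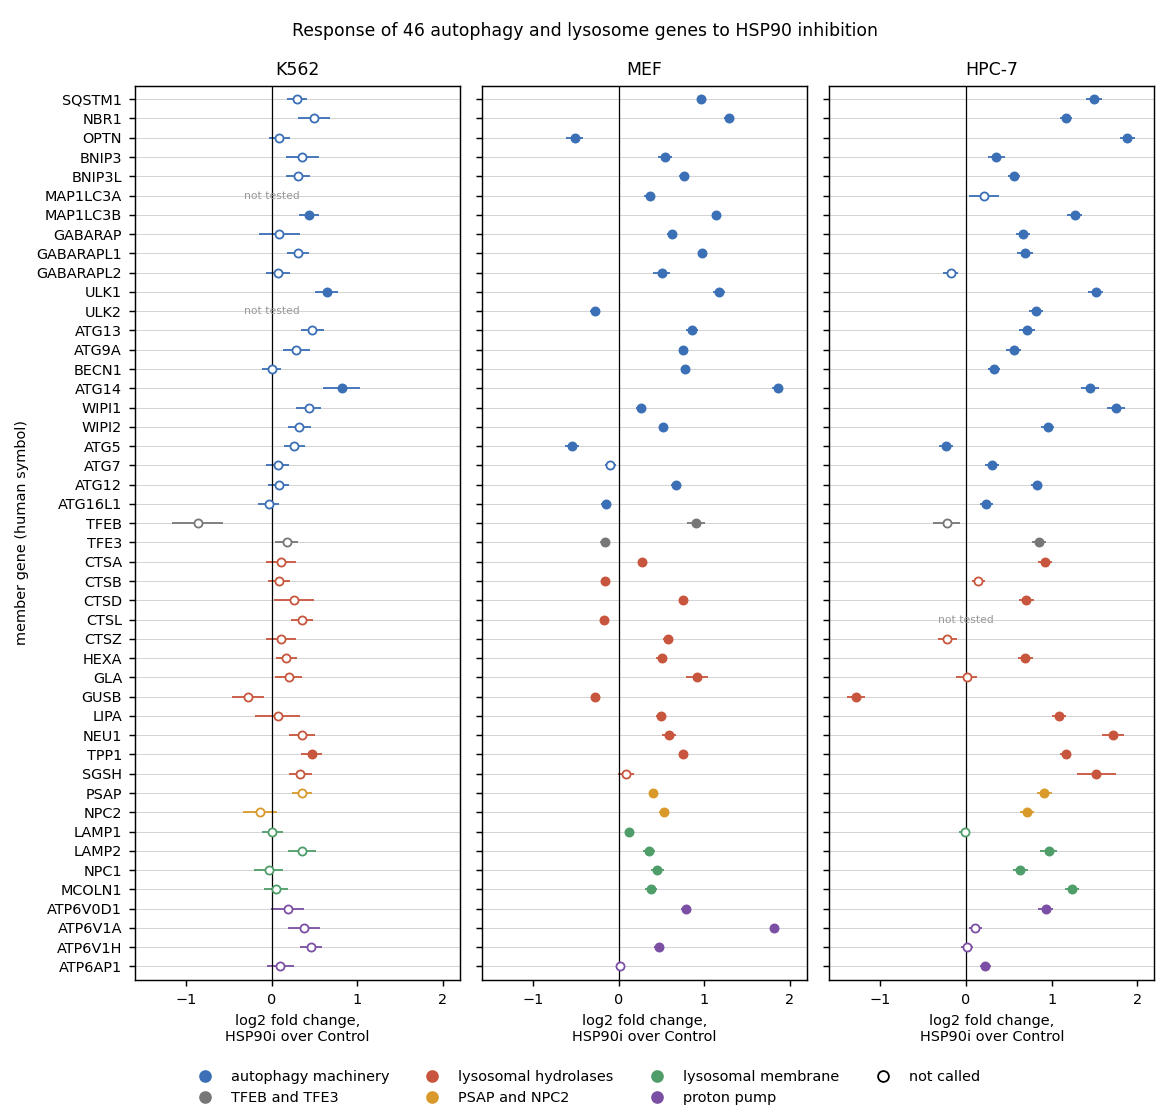
Log2 fold change of each of the 46 members (rows, human symbols) in K562, MEF and HPC-7 (panels), HSP90i over Control, with bars of 1 SE, n = 3 per group. Filled points were called at an adjusted p below 0.05 and open points were not. Most points lie right of 0 in both mouse lines, and in K562 only MAP1LC3B, ULK1, ATG14 and TPP1 are filled.

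Autophagy receptors had the largest rise of summed level of the autophagy roles in MEF and HPC-7. The CPM of SQSTM1, NBR1, OPTN, BNIP3 and BNIP3L together rose from 651 ± 24.4 to 1268 ± 13.5 in MEF (SD), a ratio of 1.95, and from 641 ± 10.3 to 1535 ± 115 in HPC-7, a ratio of 2.39. In K562 it went from 1417 ± 60.2 to 1747 ± 52.3, a ratio of 1.23, below the 1.27 of both the ATG8 and the initiation genes there (without Control replicate 1, 1.26 against 1.32 for ATG8 and 1.33 for initiation genes). A sum of CPM is weighted towards the genes with most reads, here Sqstm1 in MEF.

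Sqstm1 (ENSMUSG00000015837, chr11:50200152-50210820 in GRCm38.p6) encodes p62, a receptor for ubiquitinated cargo. It was at 387, 364 and 399 CPM in the 3 MEF controls and at 749.8, 739 and 738 CPM after the inhibitor, a log2 fold change of 0.95 ± 0.05 (edgeR adjusted p = 2.32e-07). In HPC-7 it was at 133, 134 and 143 CPM in the controls and 431, 336 and 389 CPM in the treated libraries, a change of 1.49 ± 0.09 (edgeR adjusted p = 8.78e-07). In both mouse lines every treated library lay above every control. In K562 the values were 1190, 1010 and 1008 against 1309, 1348 and 1279 CPM, again without overlap, but the change of 0.29 ± 0.12 was not called (edgeR adjusted p = 0.152). Without Control replicate 1 it was 0.38 and called (edgeR adjusted p = 0.000864).

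Optn (chr2:5020521-5064399) encodes optineurin, a receptor in the clearance of mitochondria and bacteria, and moved in opposite directions in the mouse lines. In HPC-7 it rose from 139, 130.5 and 132 CPM to 528, 434 and 521 CPM, a change of 1.88 ± 0.09 (edgeR adjusted p = 2.27e-07) and the largest rise of any member there. In MEF it fell from 20.03, 21.4 and 22.5 CPM to 16.6, 13.4 and 14.1 CPM, a change of −0.52 ± 0.10 (edgeR adjusted p = 0.00153). The groups overlapped in neither line. In K562 OPTN was at 46.9, 43.2 and 44.8 CPM in the controls and 44.99, 48.0 and 50.4 CPM in the treated libraries, which overlapped (0.09 ± 0.12, not called).

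Nbr1, a receptor related to p62, rose alike in the mouse lines. It went from 128, 138 and 144 CPM to 328, 349.8 and 322 CPM in MEF (1.29 ± 0.06) and from 149, 146 and 149 CPM to 331, 309 and 358 CPM in HPC-7 (1.17 ± 0.07), without overlap in either. The mitochondrial receptor genes Bnip3 and Bnip3l rose by less, with changes of 0.54 and 0.76 in MEF and 0.35 and 0.56 in HPC-7.

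Of the ATG8 family, all 5 genes rose in MEF, 3 rose in HPC-7 and 1 of 4 tested rose in K562 (2 without Control replicate 1). Map1lc3b (chr8:121590438-121598760) encodes LC3B, the usual marker of autophagosomes. Its level was 114, 115 and 115 CPM in MEF controls and 246, 263 and 247 CPM after the inhibitor, a change of 1.14 ± 0.05. In HPC-7 it went from 165, 188 and 182 CPM to 453, 389.7 and 443 CPM, a change of 1.27 ± 0.08. In K562 it went from 432, 372 and 384 CPM to 534, 555 and 514 CPM, a change of 0.43 ± 0.12 that passed narrowly (edgeR adjusted p = 0.0493). The lowest treated value lay above the highest control in each of the 3 lines.

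Gabarapl1, another ATG8 gene, went from 77.5, 76.5 and 82.1 CPM to 155, 155 and 151 CPM in MEF (0.97 ± 0.05). In HPC-7 it went from 128, 128 and 135 CPM to 239, 183 and 209 CPM (0.69 ± 0.10). In K562 GABARAPL1 was at 57.9, 61.8 and 67.5 CPM against 76.1, 80.6 and 74.8 CPM, without overlap, and its change of 0.31 ± 0.12 was not called (0.26 and called without Control replicate 1). Gabarap rose by 0.62 in MEF and 0.67 in HPC-7. Map1lc3a and Gabarapl2 rose in MEF (0.36 and 0.50) and were not called in HPC-7 (0.21 and −0.18). MAP1LC3A had no count in any K562 library and was not tested there.

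Nearly all initiation genes rose, with 8 of 8 higher in HPC-7 and 7 of 8 higher in MEF, the exception being Ulk2. In K562 2 of 7 were higher with all libraries and 6 of 7 without Control replicate 1. Atg14 (chr14:47540893-47568434), which brings the lipid kinase complex to the forming membrane, had the largest rise of any member in MEF, from 12.3, 11.7 and 11.8 CPM to 42.9, 43.6 and 43.4 CPM (1.85 ± 0.06, edgeR adjusted p = 4.84e-08). In HPC-7 it rose from 24.6, 23.9 and 23.0 CPM to 72.0, 55.4 and 68.0 CPM (1.45 ± 0.11). In K562 it rose from 6.198, 10.1 and 10.5 CPM to 15.1, 15.2 and 16.9 CPM (0.82 ± 0.21, edgeR adjusted p = 0.0446, and 0.61 without Control replicate 1). It did not overlap between groups in any line, and in K562 Control replicate 1 was the lowest of the 6 libraries.

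Ulk1 (chr5:110784489-110810120), the kinase that starts autophagy, rose in all 3 lines as well. It went from 38.1, 33.7 and 39.9 CPM to 86.3, 84.1 and 80.5 CPM in MEF (1.17 ± 0.07) and from 96.7, 103 and 108 CPM to 319, 265 and 292 CPM in HPC-7 (1.51 ± 0.08). In K562 it went from 27.9, 25.1 and 22.6 CPM to 42.1, 38.2 and 38.0 CPM (0.64 ± 0.14, edgeR adjusted p = 0.0211), the smallest adjusted p of any member in that line. Its relative Ulk2 was split, lower in MEF (54.3, 56.9 and 52.8 CPM to 43.5, 46.6 and 45.2 CPM, −0.28 ± 0.06) and higher in HPC-7 (64.6, 66.2 and 62.9 CPM to 105, 109.6 and 127 CPM, 0.82 ± 0.09).

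Wipi1 (chr11:109573521-109611389), which binds the lipid made at the forming membrane, rose from 8.70, 8.38 and 8.93 CPM to 30.9, 27.6 and 29.0 CPM in HPC-7 (1.75 ± 0.10). In MEF it rose from 47.2, 43.9 and 45.8 CPM only to 53.0, 55.8 and 55.2 CPM (0.26 ± 0.05). Both lines were free of overlap, and the smaller change in MEF was a fold of 1.19 against 3.37 in HPC-7. Becn1, Atg13, Atg9a and Wipi2 rose by 0.52 to 0.86 in MEF and by 0.32 to 0.95 in HPC-7.

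The conjugation genes showed mixed changes. Their summed CPM was 145 ± 4.20 in MEF controls and 142 ± 4.08 after the inhibitor (ratio 0.978), and rose from 177 ± 1.61 to 229.9 ± 3.85 in HPC-7 (ratio 1.30). Atg5, whose protein joins ATG12 in the ligase for ATG8 proteins, fell in both mouse lines. It went from 45.3, 50.7 and 49.3 CPM to 29.6, 35.2 and 34.7 CPM in MEF (−0.55 ± 0.08) and from 30.5, 30.9 and 33.4 CPM to 27.5, 26.7 and 26.3 CPM in HPC-7 (−0.23 ± 0.08, edgeR adjusted p = 0.0269). Its partner Atg12 rose in both, by 0.66 and 0.82. Atg16l1 was slightly lower in MEF (−0.15) and slightly higher in HPC-7 (0.24), and Atg7 was called only in HPC-7 (0.30, against −0.10 in MEF). The calls of Atg16l1 in both lines and of Atg5 in HPC-7 were lost under at least 1 other setting, that of Atg16l1 in MEF under 12 of 13. In K562 the 4 genes had changes from −0.04 to 0.27 and 0 were called by edgeR, also at an unadjusted p below 0.05. Without Control replicate 1 again 0 were called, and 1 passed at the unadjusted threshold.

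**Figure D2:**
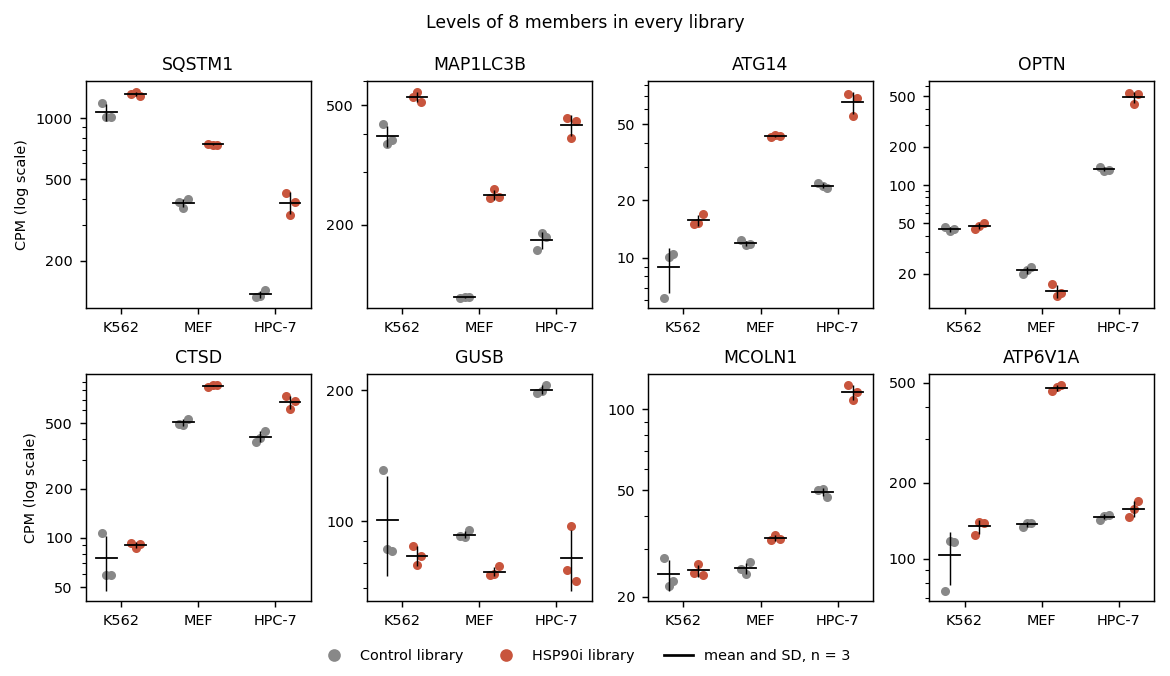
CPM (log scale) of 8 members in each Control and HSP90i library of the 3 lines, with the mean and SD of each group (n = 3). For SQSTM1, MAP1LC3B and ATG14 the treated points lie above the controls in every line (not called for SQSTM1 in K562), OPTN is higher only in HPC-7 and lower in MEF, GUSB is lower in both mouse lines, and ATP6V1A stands out in MEF at 479 CPM against 137 CPM.

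Of the transcription factor genes of the CLEAR network, Tfeb was called only in MEF, and Tfe3 in both mouse lines with opposite signs. Tfeb rose in MEF from 13.3, 11.2 and 12.3 CPM to 25.4, 21.6 and 21.5 CPM (0.90 ± 0.10), without overlap. In HPC-7 it was at 9.06, 12.3 and 11.4 CPM against 10.3, 9.21 and 8.04 CPM, with overlap (−0.23 ± 0.16, not called). In K562 TFEB was at 21.1, 11.7 and 9.20 CPM in the controls and 8.71, 7.0 and 7.34 CPM in the treated libraries, without overlap but not called (−0.87 ± 0.30). Control replicate 1 was the highest, and without it the change was −0.45. Tfe3 rose in HPC-7 from 41.3, 42.2 and 40.1 CPM to 80.7, 71.1 and 70.1 CPM (0.85 ± 0.08). In MEF it went from 70.6, 67.4 and 71.4 CPM to 62.3, 64.3 and 60.1 CPM (−0.17 ± 0.05), a call lost under 8 of 13 other settings. These are transcript levels and say nothing of where the proteins are in the cell.

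Among the hydrolases 8 of 12 rose and 3 fell in MEF, 7 of 11 rose and 1 fell in HPC-7, and 1 of 12 rose in K562 (8 without Control replicate 1). Tpp1 (chr7:105744811-105752282), a lysosomal peptidase, was the one hydrolase called in every line. It went from 115, 114 and 111 CPM to 185, 193 and 196 CPM in MEF (0.75 ± 0.04). In HPC-7 it went from 114, 111 and 117 CPM to 264, 244 and 258 CPM (1.16 ± 0.07). In K562 it went from 189.8, 184 and 206 CPM to 282, 246 and 275 CPM (0.47 ± 0.12, edgeR adjusted p = 0.0419). Treated and control values were apart in all 3.

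Ctsd, the aspartic protease cathepsin D and 1 of the genes with a CLEAR core shown above, rose to a like extent in the mouse lines. It went from 499, 487 and 535 CPM to 839, 861 and 857 CPM in MEF (0.75 ± 0.05) and from 387, 407 and 450.4 CPM to 731, 611 and 682 CPM in HPC-7 (0.70 ± 0.09). In K562 CTSD was at 107, 59.2 and 59.4 CPM in the controls and 93.4, 86.1 and 91.1 CPM after the inhibitor. Control replicate 1 lay above all treated libraries and the other controls below them, and the change of 0.26 ± 0.23 became 0.61 and called without that library.

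The sialidase gene Neu1 and the sulfamidase gene Sgsh had the largest rises among HPC-7 hydrolases. Neu1 (chr17:34931253-34937297) went from 15.1, 16.7 and 19.03 CPM to 62.4, 46.7 and 56.4 CPM (1.71 ± 0.13), and in MEF from 21.4, 21.4 and 18.3 CPM to 30.9, 30.8 and 30.1 CPM (0.58 ± 0.08). Sgsh went from 2.82, 2.82 and 1.67 CPM to 8.50, 6.66 and 5.94 CPM in HPC-7 (1.52 ± 0.23) and was at 20.1, 16.3 and 18.5 against 20.4, 18.4 and 19.7 CPM in MEF (0.08 ± 0.09, not called). Neu1 did not overlap between groups in either line, and Sgsh overlapped in MEF.

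Gla, which encodes alpha-galactosidase A and carries 2 copies of the core printed above, showed the other pattern. It rose in MEF from 19.2, 17.0 and 24.7 CPM to 36.8, 35.8 and 41.7 CPM (0.91 ± 0.13). In HPC-7 it was at 10.9, 10.9 and 11.3 CPM against 9.74, 11.4 and 12.1 CPM, with overlap (0.00 ± 0.12, not called). Ctsz showed the same pattern, with 0.58 in MEF and an uncalled −0.22 in HPC-7.

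Gusb (chr5:129989011-130003049), which encodes beta-glucuronidase, fell in both mouse lines. In HPC-7 it went from 197, 199.7 and 206 CPM to 77.0, 97.4 and 72.7 CPM, a change of −1.29 ± 0.10 (edgeR adjusted p = 3.17e-06) and the only member at least 2-fold lower in any line. In MEF it went from 92.2, 91.9 and 95.3 CPM to 75.4, 75.6 and 78.7 CPM (−0.28 ± 0.05). No treated library reached a control in either line. In K562 GUSB was at 131, 86.3 and 85.2 CPM against 87.8, 79.2 and 83.1 CPM, with overlap (−0.27 ± 0.18, not called).

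The cysteine protease genes Ctsl and Ctsb fell slightly in MEF. Ctsl went from 497, 504 and 505 CPM to 435, 454 and 451 CPM (−0.17 ± 0.04), and Ctsb changed by −0.16, calls that were both lost under at least 1 other setting. In HPC-7 Ctsl had at most 0.654 CPM in any library and was not tested. Ctsa, Hexa and Lipa rose in both mouse lines, by 0.27, 0.50 and 0.49 in MEF and by 0.92, 0.69 and 1.08 in HPC-7.

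The cofactors and membrane proteins rose in the mouse lines with 1 exception. Psap, the precursor of the saposins, went from 1037, 1033 and 1070 CPM to 1401, 1414 and 1318 CPM in MEF (0.40 ± 0.04) and from 251, 259.8 and 279 CPM to 546, 457 and 485 CPM in HPC-7 (0.92 ± 0.08). Npc2, which hands cholesterol to NPC1, went from 264, 285 and 302 CPM to 409, 414 and 398 CPM in MEF (0.52 ± 0.05) and from 263, 269.9 and 304 CPM to 477, 422 and 471 CPM in HPC-7 (0.71 ± 0.08). Both genes were without overlap in both lines. Npc1, which takes that cholesterol through the lysosomal membrane, rose by 0.45 ± 0.08 in MEF, from 47.9, 53.2 and 56.9 CPM to 74.0, 73.6 and 66.9 CPM, and by 0.63 in HPC-7.

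Mcoln1, a calcium channel of the lysosome with a CLEAR core, rose from 25.3, 24.3 and 26.9 CPM to 32.4, 34.1 and 32.8 CPM in MEF (0.37 ± 0.07) and from 49.9, 50.5 and 47.2 CPM to 124, 108 and 116 CPM in HPC-7 (1.24 ± 0.08). Lamp2 rose from 247, 259 and 218 CPM to 295, 307 and 323 CPM in MEF (0.35 ± 0.07) and from 212, 204 and 214 CPM to 351, 414 and 467 CPM in HPC-7 (0.97 ± 0.10). Neither gene overlapped between groups. Lamp1, a common marker of the lysosomal membrane, had small changes. It was at 703, 674 and 719 against 759, 762 and 753 CPM in MEF (0.12 ± 0.04, a call lost under at least 1 other setting) and at 397, 382 and 402 against 403, 383 and 383 CPM in HPC-7 (−0.01 ± 0.06). In K562 it was at 135, 111 and 118 against 124, 124 and 118 CPM (0.01 ± 0.13), so groups overlapped in K562 and HPC-7.

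The proton pump genes split between the mouse lines, with 3 of 4 higher in MEF and 2 of 4 in HPC-7. Atp6v1a (chr16:44085402-44139702), the catalytic subunit, rose there from 133, 138 and 139 CPM to 463, 481 and 491 CPM, a change of 1.81 ± 0.04 (edgeR adjusted p = 1.34e-08, the smallest of any member). In HPC-7 the same gene was at 143, 148 and 149 CPM in the controls and 147, 158 and 169.9 CPM after the inhibitor (0.11 ± 0.07, not called). The control levels of the 2 lines were close, the MEF groups were far apart and the HPC-7 groups overlapped. Atp6v0d1, a subunit of the membrane sector with a CLEAR core, rose in both lines, from 82.6, 81.5 and 83.6 CPM to 139.9, 149 and 137 CPM in MEF (0.78 ± 0.05) and from 133, 137 and 145 CPM to 295, 236 and 259 CPM in HPC-7 (0.93 ± 0.09). Atp6v1h rose in MEF (0.46) but was not called in HPC-7 (0.01). Atp6ap1, an accessory subunit, went from 117, 114 and 115 CPM to 141, 133 and 131 CPM in HPC-7 (0.22 ± 0.07, a call lost under at least 1 other setting) and was not called in MEF (0.02).

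All 6 members with a CLEAR core were called higher in MEF, beside 35 of all 46 members and 35.1% of all genes. In HPC-7 4 of them were, without Gla and Atp6v1a, beside 34 of 45 members and 36.5% of all genes. In K562 0 were called with all libraries, also at an unadjusted p below 0.05, and their changes ran from 0.05 (MCOLN1) to 0.38 (ATP6V1A). Without Control replicate 1, 4 of the 6 were higher there, namely CTSA (0.32), CTSD (0.61), GLA (0.36) and ATP6V0D1 (0.44). Of all members 22 of 44 were higher in that setting, and of all genes 14%.

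Autophagy machinery was compared with hydrolases and pump genes as 22 against 16 members. Of tested genes in these classes, 77.3% of the machinery and 68.8% of the hydrolase and pump genes were higher in MEF, and 86.4% and 60% in HPC-7. The medians were close, 0.64 against 0.50 in MEF and 0.70 against 0.69 in HPC-7. In K562 3 of 20 and 1 of 16 were higher, with medians of 0.30 and 0.19. Without Control replicate 1 that order was turned, with 10 of 20 and 11 of 16 higher and medians of 0.25 and 0.34. The summed CPM of the machinery rose more than that of hydrolases and pump in the mouse lines, with ratios of 1.71 against 1.34 in MEF and 1.995 against 1.42 in HPC-7. In K562 the ratios were 1.23 and 1.17, and both were 1.27 without Control replicate 1. In MEF the pump alone had a ratio of 1.84 and the hydrolases 1.22, while in HPC-7 the order was turned, with 1.33 for the pump and 1.46 for the hydrolases. The MEF pump ratio rests mostly on Atp6v1a. The class sum went from 504 to 929 CPM there, and Atp6v1a changed by 1.81. Atp6v0d1, Atp6v1h and Atp6ap1 changed by 0.78, 0.46 and 0.02 (median of the 4 genes 0.62). These class figures describe the members, and no difference between classes was tested. With upper quartile factors, where the median of all MEF genes was 0.09, hydrolase and pump genes had 11 higher and 1 lower in MEF in place of 11 and 3.

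**Figure D3:**
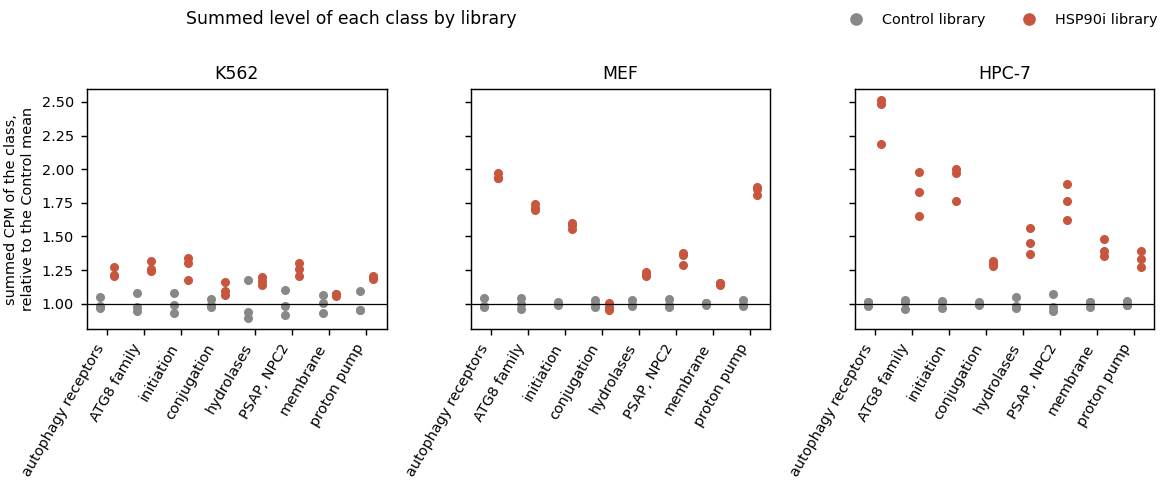
Summed CPM of each class of members in every library, divided by the mean of the Control libraries of the same line, with Control and HSP90i libraries as separate points. Autophagy receptors reach the highest ratios in HPC-7 (2.39 for the group mean), and the proton pump is high in MEF (1.84, mostly through Atp6v1a). The K562 groups lie close together, with the hydrolases of Control replicate 1 among the treated values.

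In K562 the counts turned on single libraries, as did those of all genes. The summed CPM of hydrolases was 1481, 1128 and 1181 in the controls and 1509, 1437 and 1473 in the treated libraries, so Control replicate 1 lay among the treated values. Without it 22 of 44 members were higher and 0 lower, beside 14% of all genes higher and 14.6% lower. These were 10 of 20 machinery genes and 11 of 16 hydrolase and pump genes, with PSAP. They included the 4 genes called with all libraries, and among the others SQSTM1, ATG13 (0.50), WIPI1 (0.52), NEU1 (0.53), ATP6V1H (0.54) and CTSD. The median of the members was 0.25 without that library and 0.23 with it. Without Control replicate 2, or without any 1 of the 3 HSP90i libraries, 0 members were called in either direction by edgeR. Of all genes 1.25% to 1.76% were higher and 1.24% to 2.4% lower there, so 0 lies near these shares. At an unadjusted p below 0.05, 6 to 11 members were higher and 0 to 1 lower, and the share of all genes at that threshold was not counted. Scaling moved K562 as well. With library size alone the median of all genes was −0.13, 435 genes were higher and 1195 lower in place of 688 and 803, and 1 member (in place of 4) was higher. ULK2 reached at most 0.120 CPM in K562 and was not tested.

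The responses of the 2 mouse lines were compared in 1 fit over their 12 libraries, by its term for line and treatment together. Of 46 members, 13 had a larger log2 change in MEF and 17 a larger one in HPC-7, beside 25.4% and 17.8% of 13720 genes. The median difference over all genes in this fit was 0.11, and −0.07 over the members, so sizes are read relative to that shift. The calls test against 0 and do not take the shift off. One of the 17, Ctsl, rests on the few reads of HPC-7 and is not read. Without MEF Control replicate 3, 16 members had the larger change in MEF and 15 in HPC-7, beside 3676 and 2313 of 13981 genes. The median over all genes was 0.14 in that setting. With TMM within each line the median over all genes was −0.008. There 9 members had the larger change in MEF and 21 in HPC-7, beside 2832 and 3080 of 13720 genes. Of the 29 differences called in the main fit apart from Ctsl, 20 were called under every alternative run, left-out libraries included. The 8 with the larger response in MEF were Gabarapl2, Becn1, Tfeb, Ctsz, Gla, Gusb, Atp6v1a and Atp6v1h, where Gusb fell less in MEF. The 12 with the larger response in HPC-7 were Sqstm1, Optn, Ulk2, Wipi1, Tfe3, Ctsa, Lipa, Neu1, Sgsh, Psap, Lamp2 and Mcoln1. The largest differences were −2.28 ± 0.14 for Optn (edgeR adjusted p = 2.66e-08), 1.82 ± 0.09 for Atp6v1a (edgeR adjusted p = 4.6e-09), −1.38 ± 0.11 for Wipi1 and 1.24 ± 0.19 for Tfeb. Line, tissue of origin and dose (200 nM against 50 nM) cannot be told apart in this comparison.

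**Figure D4:**
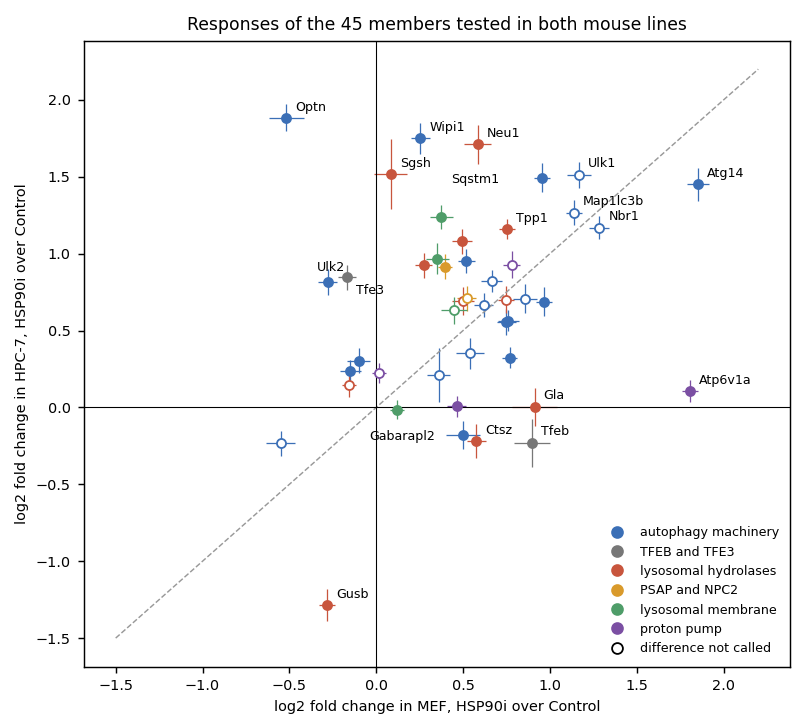
Log2 fold change in MEF (x axis) against HPC-7 (y axis) for the 45 members tested in both lines, HSP90i over Control, with bars of 1 SE and a dashed line of equal change. Filled points had a difference between lines called at an adjusted p below 0.05. Atg14, Ulk1, Map1lc3b and Nbr1 are high in both, Optn, Ulk2 and Tfe3 lie left of 0 and above it, and Atp6v1a, Gla and Tfeb are high only in MEF.

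Which members were called in the lines overlapped in part. Of the members called higher, 27 were shared by MEF and HPC-7, which is 77.1% of the 35 in MEF and 79.4% of the 34 in HPC-7. These shares are near the 75.6% of tested members higher in HPC-7 and the 76.1% in MEF. The overlap therefore shows little beyond those counts. MAP1LC3B, ULK1, ATG14 and TPP1 were higher in all 3 lines with all libraries included. Atg5 and Gusb were lower in both mouse lines, and Optn, Ulk2, Atg16l1 and Tfe3 were called lower in MEF and higher in HPC-7. Of these 4, the MEF calls of Atg16l1 and Tfe3 were lost in 12 and 8 of 13 other settings, those of Optn and Ulk2 in 0. Across the 45 members tested in both mouse lines, Pearson's r of the log2 fold changes was 0.21 and Spearman's rho 0.17, across genes, which are not independent replicates.

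Marker genes of other cell types moved with some of these results. In HPC-7, 3 of the 4 tested genes of a list of 10 macrophage markers were higher (Lyz2, Aif1 and Adgre1), and the summed level of the list went from 35.5 to 40.1 CPM in the controls to 70.4 to 87.1 CPM in the treated libraries. Most of this was Lyz2, at 33.5 CPM in the controls and 69.1 CPM with the inhibitor, while C1qa had no read and Cd68 was at 3.59 CPM in both groups. All 5 tested erythroid markers were higher in HPC-7, with a summed level of 406 to 415 CPM against 833 to 991 CPM, mostly Tal1. That gene is also 1 of the 10 progenitor markers, of which 6 were higher and 2 lower. The 2 were Cd34, which fell from 342 to 56.7 CPM (−2.60 ± 0.35), and Lyl1 (−1.11 ± 0.09). The part of these markers in the HPC-7 results was not tested. In MEF the macrophage list summed to 17.2 to 18.8 CPM in the controls and 13.3 to 15.3 CPM after the inhibitor (2 of 3 tested higher, 1 lower), with C1qc at 0. In K562 0 of 2 tested macrophage markers were called, and the list summed to 189 to 215 CPM against 179 to 208 CPM.

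A wider list held 106 other autophagy and lysosome genes. In MEF 57 of 99 tested were higher and 20 lower (median 0.27), beside 35.1% and 38.2% of all genes. In HPC-7 56 of 96 were higher and 16 lower (median 0.34), beside 36.5% and 36.6%. In K562 6 of 102 were higher and 3 lower (median 0.09), a share close to the 5.11% and 5.97% of all genes. Without K562 Control replicate 1 they were 25 and 9 of 102 (median 0.13), beside 14% and 14.6% of all genes. Of the other pump genes 12 of 14 rose in MEF and 7 of 14 in HPC-7. Calcoco1, a relative of the receptor NDP52, had the largest rise of the other autophagy genes in both lines, from 47.8 ± 3.55 to 214 ± 6.03 CPM in MEF (2.16 ± 0.06) and from 48.9 ± 1.26 to 280.5 ± 29.7 CPM in HPC-7 (2.52 ± 0.09). Vmp1, which acts in autophagosome formation, had the largest fall in both, −1.21 in MEF and −0.65 in HPC-7. Among other hydrolases Ctso rose by 2.89 in MEF (1.36 to 10.1 CPM) and Hyal2 changed by −0.79, while in HPC-7 Idua rose by 1.43 and Galns changed by −1.503.

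Other membrane genes with the largest changes were the channel gene Tpcn2 (2.07) and Mfsd8 (−0.61) in MEF, and the amino acid sensor gene Slc38a9 (1.74) and Laptm4b (−0.45) in HPC-7. Of the pump, Atp6ap2 rose by 1.51 in MEF and Atp6v0b by 1.19 in HPC-7, and Atp6v0a2 changed by −0.22 in MEF. Among regulators Mitf, a relative of TFEB, was lower in both lines (−0.93 and −1.33), Zkscan3 rose by 0.87 in MEF and Flcn by 1.52 in HPC-7. In K562 the calls with the largest change were ATG2A (0.84), LAPTM4A (0.45) and ATP6V1D (0.76) on the higher side and ACP5 (−0.87), CTNS (−0.55) and ATP6V0A2 (−0.68) on the lower side.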

How the data were processed

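RNA-seq of 18 libraries was analysed, 3 Control and 3 HSP90i in each of K562, MEF and HPC-7, grouped by their titles. The authors deposited raw counts of reads for each gene. The submitters' processing notes name featureCounts, TopHat2 2.0.13, Bowtie2, Trim Galore, Picard, MACS2 and DESeq2 without giving their roles. Whether counting used strand is not given in the sources, so reads of overlapping or antisense genes, like those of near-identical copies, may be assigned to either. In K562, TFE3, GLA, NEU1 and ATP6AP1 had further rows without counts, and the row with counts was used. K562 gene positions and the deposited ChIP-seq peaks were not used here. Mouse positions are from GRCm38.p6, matched by symbol, for 44 of 46 members.

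Counts were filtered with filterByExpr, scaled with TMM and tested with edgeR 4.0.16 (R 4.3.3) within each line, with a threshold of 0.05. The mouse lines were fitted together for the interaction. The biological coefficients of variation of K562, MEF and HPC-7 were 0.172, 0.0835 and 0.0900. The members and lists were chosen with earlier results of these data known. Values are given per library for members called in all 3 lines, for up to 2 called members in each direction with the largest change per class and line, for the 3 largest interactions of each sign, and for SQSTM1, MAP1LC3B, GABARAPL1, TFEB, LAMP1 and CTSD. Values of Ulk2, and of named members in a further line, were added after being seen. From each wider list the called gene with the largest change in each direction is named. The procedure was also run on simulated data in which far fewer genes changed than were called in any line. That run does not test scaling under broad change, or a library that stands apart. Alternatives were DESeq2 1.42.0, other scaling (upper quartile, RLE, library size alone), other filters (none, or at least 1 CPM in 3 libraries), a block for the replicate number, and leaving out each library. Added after seeing the data were, for the interaction, TMM within each line and only genes tested in both lines, and for the roles and wider lists K562 without Control replicate 1 and MEF without Control replicate 3. Promoters were searched in Python 3.11.15 and figures drawn with matplotlib 3.10.9.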

Additional observations from a re-analysis of the deposited data

Results flagged for a closer look

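The response differed between MEF and HPC-7 by the interaction test for 29 members with enough reads in both lines. Values are the MEF log2 change minus the HPC-7 change as estimated in the joint fit. Because scaling was shared in that fit, they differ from a subtraction of the changes given per line. They are read beside a median of 0.11 over all genes, while the calls test against 0. Among autophagy machinery genes the difference was positive for Bnip3l (0.31), Gabarapl1 (0.40), Gabarapl2 (0.80), Atg9a (0.31), Becn1 (0.56) and Atg14 (0.52). It was negative for Sqstm1 (−0.42), Optn (−2.28), Ulk2 (−0.98), Wipi1 (−1.38), Wipi2 (−0.32), Atg7 (−0.29) and Atg16l1 (−0.27). Tfeb and Tfe3 differed in opposite ways (1.24 and −0.90).

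Among hydrolases the difference was positive for Ctsz (0.91), Gla (1.02) and Gusb (1.12) and negative for Ctsa (−0.53), Lipa (−0.47), Neu1 (−1.01), Tpp1 (−0.29) and Sgsh (−1.32). Of the other lysosomal genes it was positive for Lamp1 (0.25), Atp6v1a (1.82) and Atp6v1h (0.57) and negative for Psap (−0.40), Lamp2 (−0.50) and Mcoln1 (−0.75). Line and dose cannot be told apart in these differences. Of these 29, 9 were not called in at least 1 of 21 other settings, namely Atg9a (in 12, down to 0.06), Lamp1 (15), Bnip3l (10), Gabarapl1 and Atg7 (8 each), Atg16l1 (5), Atg14 (4), Wipi2 and Tpp1 (1 each).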

How the results depend on the processing

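Calls held under every setting for 0 of 4 members in K562, 38 of 43 in MEF, 32 of 36 in HPC-7 and 21 of 30 differences between the mouse lines, and 0 of these called values turned their sign. Of the values not called, 12, 1, 3 and 8 did. MEF lost Atg16l1, Tfe3, Ctsb, Ctsl and Lamp1, and HPC-7 lost Bnip3, Atg5, Atg16l1 and Atp6ap1, in at least 1 setting. The cause was not tested.

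In K562 the members called higher (all, machinery, hydrolase and pump) numbered 1, 1 and 0 with library size alone and with upper quartile factors. Of all genes 3.23% and 3.98% were higher there. DESeq2 called 7 of all and 2 of hydrolase and pump, beside 7.01% of all genes. TFEB was the 1 member lower with no filter, with the replicate block and without Control replicate 3. Members lower in MEF numbered 4 with upper quartile factors (1 of hydrolase and pump). In HPC-7 members lower numbered 1 (0 of the machinery) with upper quartile factors, DESeq2 and the replicate block, and 2 of hydrolase and pump with no filter. Machinery genes with the larger change in MEF numbered 3 with RLE factors, upper quartile factors, DESeq2 and TMM within each line, and 2 (8 of all members) over genes tested in both lines. Those with the smaller change in MEF numbered 4 with the replicate block.

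Leaving out 1 library gave K562 0 to 22 members higher, 0 to 10 for machinery and 0 to 11 for hydrolase and pump, with 0 to 1 lower. Of all K562 genes 1.25% to 14% were higher and 1.24% to 14.6% lower. MEF had 34 to 35 higher and 5 to 7 lower (machinery 17 and 3, hydrolase and pump 11 and 2 to 3). Of all MEF genes 32.1% to 37.1% were higher and 34.4% to 37.1% lower. HPC-7 had 31 to 34 higher and 1 to 3 lower (machinery 17 to 19 and 0 to 1, hydrolase and pump 8 to 9 and 1 to 2). Of all HPC-7 genes 33.1% to 36.7% were higher and 33.5% to 37.2% lower. Differences with MEF above numbered 8 to 16 (2 to 9 and 5) and with MEF below 15 to 23 (5 to 10 and 6 to 8). All 3 settings without an HPC-7 control gave 8 members with MEF above. Of all genes 2139 to 3711 had MEF above and 2246 to 3343 had MEF below when 1 library was left out.

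The mean of its group was first taken from each gene's log2 CPM. What remained correlated between Control and HSP90i libraries of the same number at 0.28, 0.04 and 0.45 in K562. The values were 0.27, −0.22 and −0.25 in MEF and 0.01, 0.02 and −0.09 in HPC-7, so the replicate number was not taken as a pairing. Of the controls, 2, 1 and 1 of 3 correlated best with their own number.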
